A study of Xiphophorus maculatus with 24 samples.

Results

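The night entry step compared skin of male *Xiphophorus maculatus* Jp 163 A taken at 2AM with skin taken at 8PM, and so spanned lights-off. In the count table it was chosen by clock time, and 8 of the 24 libraries belonged to it, 4 at each time. On a cycle of 13 h light and 11 h dark, 2AM lay 5.5 h into the dark and 8PM lay 0.5 h before lights-off. All fish were untreated males of 1 inbred line of platyfish, fed in the morning and the afternoon. At each time, replicates A and B came from fish labelled 12 months old and replicates C and D from fish labelled 24 months old. The library names also give the 12-month fish a later year than the 24-month fish, so that year and age cannot be told apart, and this pair of sets was a term of the model. The other 16 libraries came from 8AM and 2PM (4 each) and from 11AM, 5PM, 11PM and 5AM (2 each, 24-month fish), and were used here only where stated.

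The vertebrate circadian clock is a loop of transcription. Proteins of the BMAL (*arntl*) and CLOCK or NPAS2 families pair on E-box elements and switch on the period (*per*) and cryptochrome (*cry*) genes, whose products enter the nucleus and shut that pair off. Rev-erb (*nr1d*) and ROR (*ror*) nuclear receptors compete for elements in the *arntl* promoter, as repressors and as activators, and the PAR bZIP factors DBP, TEF and HLF oppose the repressor NFIL3 on D-box elements. In fish, peripheral organs such as skin carry clocks that light can set directly, and some *per* and *cry* genes are induced by light.

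The 8 libraries held between 25927255 and 34107265 counted reads. A count of 0 still allowed up to 3 counts, or 0.088 to 0.116 CPM (counts scaled to a common library total), by counting error alone. Replicate D at 2AM stood apart, with Pearson correlations of log2 CPM of 0.896 to 0.947 with the other 7 libraries, whereas the other pairs had 0.925 to 0.992. The spread between fish also differed between the sets, with each value from 1 pair of fish. The 2AM pair of the 24-month fish includes replicate D. The median absolute difference between 2 fish was 0.113 log2 units at 2AM and 0.138 at 8PM in the 12-month fish, but 0.371 at 2AM and 0.234 at 8PM in the 24-month fish. With both ages together, summed markers of 9 cell types overlapped between 2AM and 8PM for every type, and none of the 30 markers tested was called. Of 6 red blood cell markers sought, only *hbba2* was found. In the 12-month fish it had 7.18 and 7.81 CPM at 2AM, against 35.6 and 22.6 CPM at 8PM. Fibroblast sums were also lower at 2AM in these fish (7490 and 6030 against 8060 and 9380 CPM). Melanophore sums were higher at 2AM in them (15.4 and 18.6 against 11.9 and 10.3 CPM). None of these types separated in the 24-month fish. Scale osteoblast sums were lower at 2AM within each age. They were 538 and 370 against 564 and 775 CPM (12-month) and 225 and 255 against 361 and 544 CPM (24-month). These gaps were not tested. The 3 keratinocyte markers found (*krt5*, *tp63* and *epcam*) summed to between 16300 and 37400 CPM at 2AM and between 26500 and 41000 CPM at 8PM. In 2AM replicate D, fibroblast markers summed to 970 CPM, against 3990 to 7490 CPM in the other 2AM libraries and 3970 to 9380 CPM at 8PM, and muscle markers to 8580 CPM, against 2430 to 4430 CPM and 2310 to 5730 CPM. Keratinocyte (16300 CPM) and leukocyte (1680 CPM) marker sums were also lowest in 2AM replicate D, below the lowest at 8PM (26500 and 2640 CPM). In whole skin, fewer cells of a type and less RNA per cell cannot be told apart.

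Across lights-off, 90 genes rose and 83 fell among 18263 tested, which is 0.493% and 0.454% of them (edgeR's quasi-likelihood test, Benjamini-Hochberg adjusted p under 0.05, termed called here). Genes of the clock led both directions. The largest rise was that of the D-box factor *dbpb*, 49.4-fold, and the largest fall was that of its antagonist *nfil3-5*. The median absolute change of the called genes was 1.22 log2 units, the smallest was 0.56, and 110 of the 173 changed at least 2-fold. In 158 of the 173 the 4 libraries of 2AM did not overlap the 4 of 8PM. Over all genes tested, all 4 libraries of 2AM lay above those of 8PM for 671 genes (3.67%) and below them for 824 (4.51%). An unadjusted p under 0.05 was reached by 3711 genes.

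The number of calls depended strongly on the model and on single libraries. With the replicate letters as a block, 18 genes were higher (0.0986%) and 10 lower (0.0548%), and all 28 were among the 173. Left out in turn, 2AM replicate A left 18 higher and 12 lower, 2AM replicate B 19 and 14, 2AM replicate C 259 and 165, and 2AM replicate D 560 (3.04%) and 662 (3.59%). Without 8PM replicate A there were 17 and 15, without B 17 and 15, without C 65 and 68, and without D 17 and 18. DESeq2 called 822 higher (4.5%) and 698 lower (3.82%) with the same genes and model. A group of 26 genes, 15 higher and 11 lower, was called in all 8 fits that left out a library, and 24 of these were also called with the block. Of the 21 with a name, 14 belonged to the 4 clock lists described next.

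**Figure D1:**
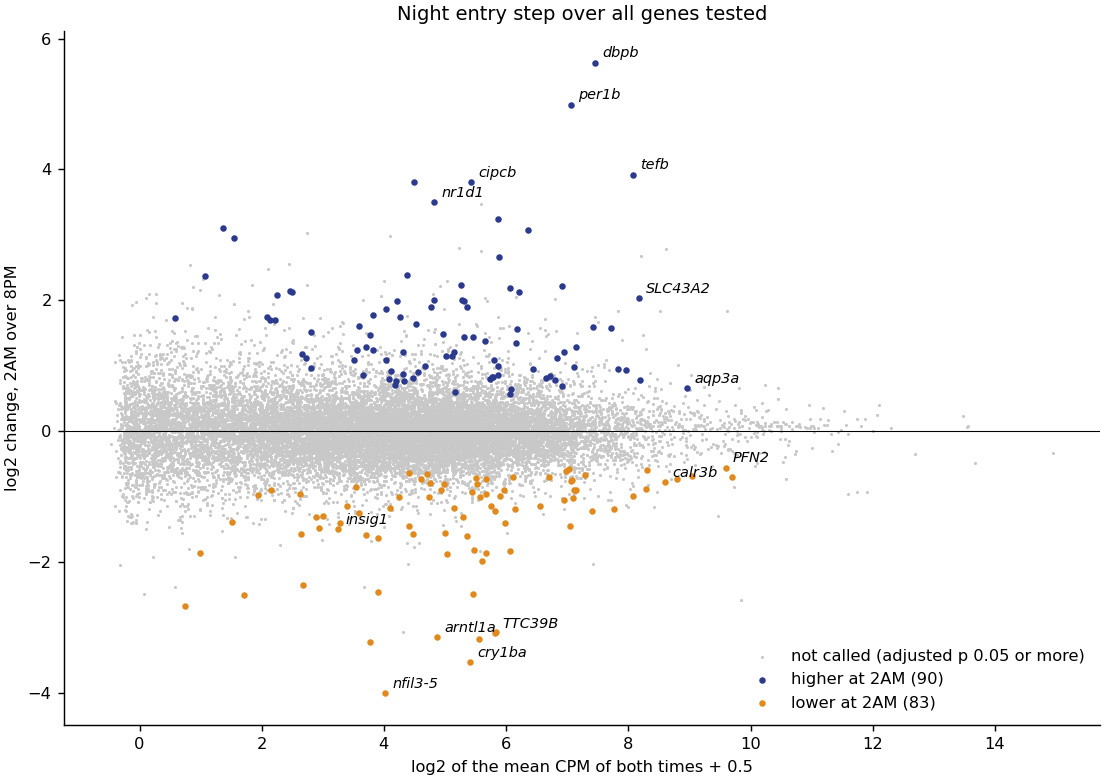
Change of each of the 18263 genes tested (log2, 2AM over 8PM) against its mean level (log2 of the mean CPM of both times plus 0.5). Blue points are the 90 genes higher and orange points the 83 genes lower at 2AM, and the labelled clock genes *dbpb*, *per1b* and *nfil3-5* lie farthest from 0.

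Of the 36 clock genes tested in 4 lists (activators, repressors, nuclear receptors and D-box factors), 13 rose and 10 fell, so that 63.9% were called beside 0.947% of all genes. With the block, 7 rose and 6 fell. A separate list of clock kinases and F-box proteins is not in this share. None of its 10 genes tested was called (median 0.07). All these lists were drawn up with earlier results of these data known. Of the 23 calls, 14 held in all 8 fits that left out a library, and that of *nr1d4a* was lost only without 8PM replicate B. The other 8 genes (*arntl2*, *CIART*, *cry1ab*, *per2*-Ohnolog2, *nr1d2a*, *nr1d2b*, *rorca* and *tefa*) lost their call without 2AM replicate A, 2AM replicate B, 8PM replicate A or 8PM replicate B, and all but *rorca* also without 8PM replicate D (adjusted p = 0.0698 to 0.177 over these fits). *per2*-Ohnolog2 (0.053) and *nr1d2b* (0.0567) lost it too without 8PM replicate C, and *nr1d2a* (0.0578) without 2AM replicate C. A further repressor gene, *tipin*, had no counts in the 8 libraries and was not tested.

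The clock activators fell. Of 6 tested, 5 fell and none rose, with a list median of −2.18 against 0 for all genes, and 3 fell with the block. *arntl1a*, which encodes BMAL1, had 4.11, 4.49, 6.82 and 8.46 CPM in 2AM replicates A to D, against 47.7, 51.5, 54.9 and 50.9 CPM in 8PM replicates A to D. *clocka* had 5.89, 7.81, 9.68 and 13.6 CPM at 2AM, against 107, 100, 67.1 and 61.2 CPM at 8PM. The times did not overlap for either gene. The 12-month fish had the lowest 2AM and the highest 8PM values of *clocka*, but its change did not pass the test of a difference between the ages (12-month minus 24-month fish −1.53, adjusted p = 0.0967). The log2 change of *arntl1a* was −3.15 ± 0.205 (SE, adjusted p = 0.000365) and that of *clocka* −3.18 ± 0.337 (adjusted p = 0.00664, and 0.0566 with the block).

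Its paralog *clockb* had 19.6, 21, 26.6 and 18.3 CPM at 2AM, against 56.9, 70, 104 and 85 CPM at 8PM (log2 change −1.86 ± 0.165, adjusted p = 0.00252). *npas2*, whose product can stand in for CLOCK, had 1.43, 1.25, 3.13 and 1.67 CPM at 2AM, against 5.77, 6.83, 15.9 and 10.9 CPM at 8PM (−2.36 ± 0.237, adjusted p = 0.00482). Both were lower in each 2AM library than in any 8PM library. The BMAL2 family has 2 genes. *arntl2* had 12.3, 16.2, 21.4 and 28.2 CPM at 2AM, against 85.4, 95.6, 65.1 and 61 CPM at 8PM (−1.99 ± 0.298, adjusted p = 0.0341, and 0.122 with the block). Its Ohnolog *ARNTL2*, the other copy kept from the teleost genome duplication, was not called, with 150 ± 32.7 CPM at 2AM and 213 ± 36.9 CPM at 8PM (SD, n = 4 each; log2 change −0.51, adjusted p = 0.112), and its times overlapped.

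The period genes moved both ways. *per1b* had 310, 330, 217 and 175 CPM at 2AM, against 5.95, 7.56, 10.9 and 7.24 CPM at 8PM. *per3* had 133, 130, 81.1 and 90.5 CPM at 2AM, against 29.2, 28.4, 22.3 and 15.7 CPM at 8PM. Both rose with no overlap, and for both the 12-month fish of 2AM were the highest. The log2 change was 4.99 ± 0.287 for *per1b* (adjusted p = 0.000203) and 2.18 ± 0.142 for *per3* (adjusted p = 0.000365). The *per2* pair, which belongs to the light-induced branch in fish, was lower at 2AM. *per2*-Ohnolog2 had 6.72, 9.21, 14.4 and 25.8 CPM at 2AM, against 82.2, 76.4, 76.8 and 56.6 CPM at 8PM, and fell by 2.5 on the log2 scale (SE 0.389, adjusted p = 0.035, and 0.126 with the block). *per2* had 2.14, 1.59, 4.39 and 8.82 CPM at 2AM, against 54.8, 43.9, 19.8 and 20.2 CPM at 8PM. It was not called (log2 change −3.08 ± 0.679, adjusted p = 0.0825), although its times did not overlap. Its change was −4.76 in the 12-month fish and −1.52 in the 24-month fish, and without 2AM replicate D its adjusted p was 0.0231.

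The cryptochromes were split as well. *cry1ba* had 4.86, 6.87, 7.77 and 6.95 CPM at 2AM, against 66.4, 59.9, 99.6 and 84.6 CPM at 8PM, a change of −3.54 ± 0.156 (adjusted p = 4.22e-05). *cry1ab* had 30.9, 34.4, 26.7 and 44.7 CPM at 2AM, against 9.03, 11.3, 14.2 and 9.46 CPM at 8PM, a change of 1.64 ± 0.22 (adjusted p = 0.0232, and 0.104 with the block). Both thus changed without overlap, in opposite directions. *cry2* averaged 25.6 ± 5.54 CPM at 2AM and 24.1 ± 3.72 CPM at 8PM and was not called (log2 change 0.07 ± 0.188, adjusted p = 0.855).

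Other negative regulators of the clock rose. *ciarta*, named for the repressor CHRONO, had 35.7, 40.5, 45.9 and 43.1 CPM at 2AM, against 2.51, 3.78, 1.91 and 3.62 CPM at 8PM (log2 change 3.81 ± 0.248, adjusted p = 0.000365). A second gene of that name, *CIART* (ENSXMAG00000026817), had 13.4, 9.55, 4.15 and 5.34 CPM at 2AM, against 2.72, 2.78, 0.41 and 1.61 CPM at 8PM (2.14 ± 0.354, adjusted p = 0.0415, and 0.0747 with the block). *cipcb*, a CLOCK-interacting inhibitor outside the list, had 98.9, 102, 60.2 and 55.6 CPM at 2AM, against 6.7, 5.98, 5.28 and 4.2 CPM at 8PM (3.8 ± 0.144, adjusted p = 2.42e-05). None of the 3 overlapped between times. *bhlhe40*, an E-box repressor also called DEC1, rose to 127, 131, 79 and 69.6 CPM at 2AM, against 12.9 to 17.4 CPM at 8PM (ENSXMAG00000025515, 2.66 ± 0.195, adjusted p = 0.000722). The second gene printed under that name, *BHLHE40* (ENSXMAG00000002248), overlapped between times and was not called (0.91 ± 0.318, adjusted p = 0.179), and neither were *bhlhe41* (0.96 ± 0.199, adjusted p = 0.0743) or *timeless* (0.11 ± 0.134, adjusted p = 0.679). Over the 13 repressors tested, 6 rose and 2 fell, and with the block 4 rose and 1 fell.

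Among the 9 nuclear receptors tested, 4 Rev-erb genes rose and 2 ROR genes fell, and with the block 1 rose and 1 fell. *nr1d1* had 56.5, 59.4, 52.8 and 35.5 CPM at 2AM, against 4.34, 4.86, 3.72 and 4.96 CPM at 8PM (log2 change 3.5 ± 0.174, adjusted p = 7.29e-05). *nr1d4a*, from a branch of the family that fish keep, had 190, 198, 152 and 49 CPM at 2AM, against 16.9, 19.7, 13 and 17.1 CPM at 8PM (3.07 ± 0.334, adjusted p = 0.00742, 0.0566 with the block and 0.054 without 8PM replicate B). Neither overlapped, and replicate D was the lowest of the 2AM libraries for both. The pair *nr1d2a* and *nr1d2b* rose to 258 ± 61.3 and 127 ± 12.4 CPM at 2AM, against 84.8 ± 28.1 and 73.8 ± 19.2 CPM at 8PM, with adjusted p = 0.0474 and 0.037 (0.126 and 0.142 with the block). *nr1d4b* was not called (258 ± 79.5 CPM at 2AM and 128 ± 39 CPM at 8PM, adjusted p = 0.129). In 2AM replicate D it had 139 CPM where the other 3 had 291 to 308 CPM, and the 8PM libraries had 82.2 to 169 CPM. Without that library its adjusted p was 0.0181, in a fit that called more genes overall.

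The opposing ROR genes fell. *rorcb* had 12 ± 2.69 CPM at 2AM (SD, n = 4), against 93.8, 106, 132 and 73.4 CPM at 8PM (log2 change −3.07 ± 0.245, adjusted p = 0.00123). *rorca* had 5.57, 5.62, 6.82 and 6.92 CPM at 2AM, against 15.6, 16.9, 29.2 and 14 CPM at 8PM (−1.59 ± 0.227, adjusted p = 0.0291, and 0.0972 with the block). The times of both were fully separate. *rora* and *rorb* stood near 1 CPM and were not called (adjusted p = 0.499 and 0.458).

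Of the 8 D-box factors tested, 3 rose and 1 fell. *dbpb* had 384, 386, 344 and 260 CPM at 2AM, against 7.78, 9.72, 4.28 and 6.63 CPM at 8PM, the largest log2 change of all called genes at 5.63 ± 0.207 (adjusted p = 2.42e-05). *tefb* had 549, 549, 413 and 492 CPM at 2AM, against 44.6, 48.1, 24.8 and 22.4 CPM at 8PM (3.92 ± 0.195, adjusted p = 7.29e-05). Its 2AM level reached that of the most abundant genes that rose. Its Ohnolog *tefa* was nearly as abundant at 2AM but rose by less, to 370 ± 8.16 CPM at 2AM, against 216 ± 20.4 CPM at 8PM (0.78 ± 0.11, adjusted p = 0.0287, and 0.121 with the block). On the repressor side, *nfil3-5* had 2, 2.19, 1.38 and 1.8 CPM at 2AM, against 24.6, 28.2, 41.1 and 24.9 CPM at 8PM (−4.01 ± 0.25, adjusted p = 0.00035). Its Ohnolog ENSXMAG00000019530, which has no name in the tables used and was chosen after its value was seen, fell with it (−3.23, adjusted p = 0.000722). The related *nfil3* had 3.5 ± 0.821 CPM at 2AM and 7.65 ± 1.44 CPM at 8PM (−1.13, adjusted p = 0.0646). *hlfa*, at 155 ± 16.3 CPM at 2AM and 357 ± 105 CPM at 8PM, just missed the threshold (−1.16, adjusted p = 0.0508), whereas its Ohnolog *HLF* overlapped between times (0.9, adjusted p = 0.205). *nfil3-6*, the last of the list, had 6.25, 10.7, 8.85 and 40 CPM at 2AM, against 19.9, 22, 12.1 and 8.46 CPM at 8PM (−0.01, adjusted p = 0.997), and its 2AM replicate D lay far above the other 3.

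**Figure D2:**
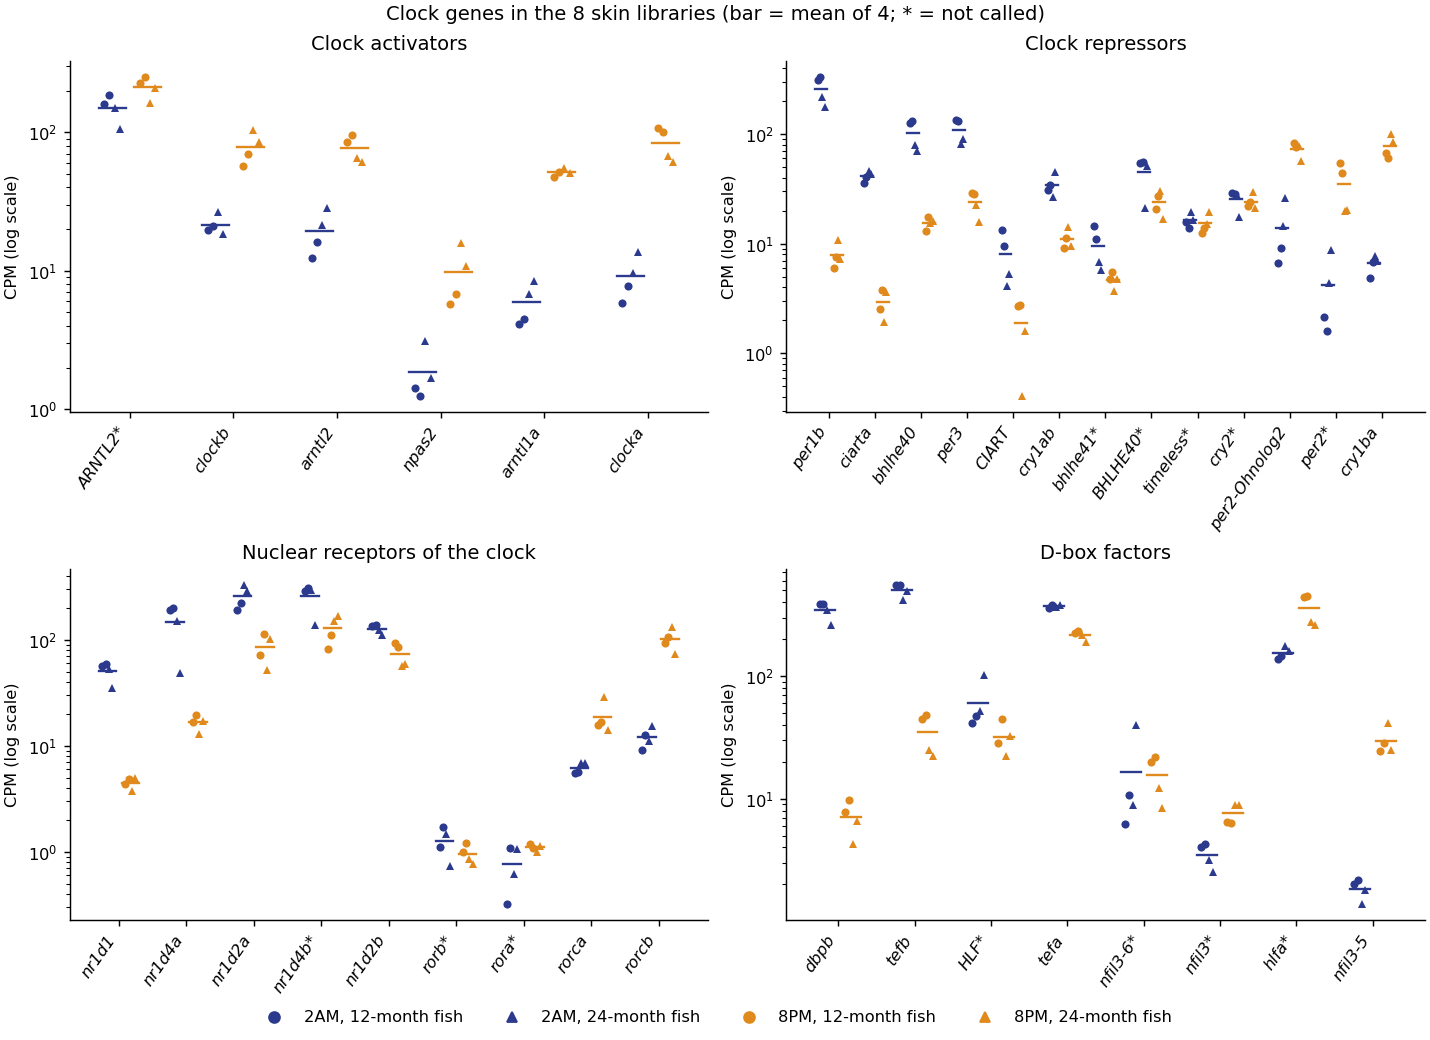
CPM (log axis) of the 36 clock genes tested in each of the 8 libraries, 2AM in blue left of 8PM in orange, with circles for 12-month fish, triangles for 24-month fish, bars for the means of 4 and an asterisk at genes not called. All activators have lower means at 2AM, with overlap between the times only for *ARNTL2*. The genes *dbpb*, *tefb*, *per1b*, *ciarta* and *nr1d1* lie higher with wide gaps between the times.

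Outside the clock lists, *TTC39B* (ENSXMAG00000010134), a tetratricopeptide repeat gene, fell to 13.6, 14.5, 8.51 and 10 CPM at 2AM, against 113, 130, 73.3 and 83.2 CPM at 8PM (log2 change −3.09 ± 0.128, adjusted p = 3.24e-05). *SLC43A2*, an amino acid transporter, rose to 363, 377, 514 and 570 CPM at 2AM, against 72.6, 76, 174 and 152 CPM at 8PM (2.03 ± 0.142, adjusted p = 0.000581), and the zinc finger gene *znf395b* rose to 62.5 ± 11 CPM at 2AM, against 13.5 ± 3.25 CPM at 8PM (2.23 ± 0.215, adjusted p = 0.004). These 3 kept their call with the block and in each fit that left out a library. *lpin1*, the phosphatidate phosphatase lipin 1, had 53.6, 69.3, 50.3 and 239 CPM at 2AM, against 4.84, 5.36, 26.2 and 12.9 CPM at 8PM. All 2AM libraries were above all 8PM libraries, and replicate D was far above the other 3. The log2 change of *lpin1* was 3.24 ± 0.498 (adjusted p = 0.0347, and 0.144 with the block), and 2.72 without 2AM replicate D (adjusted p = 0.0342). *fkbp9*, a prolyl isomerase of the endoplasmic reticulum (ER), fell to 28.4 ± 10.2 CPM at 2AM, against 105 ± 40.8 CPM at 8PM (−1.84 ± 0.316, adjusted p = 0.0447, and 0.145 with the block), and the RING finger gene *LONRF3* fell to 4.95 ± 3.48 CPM at 2AM, against 24 ± 4.16 CPM at 8PM (−2.47 ± 0.44, adjusted p = 0.0474, and 0.152 with the block). The calls of *lpin1*, *fkbp9* and *LONRF3* were lost without 2AM replicate A, 2AM replicate B, 8PM replicate A, 8PM replicate B or 8PM replicate D (adjusted p = 0.0836 to 0.193), and that of *LONRF3* also without replicate C of either time (0.0638 for 2AM and 0.0641 for 8PM).

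Some of the most abundant called genes had small changes. The water and glycerol channel *aqp3a* had 596, 510, 712 and 616 CPM at 2AM, against 359, 321, 481 and 394 CPM at 8PM (0.65 ± 0.115, adjusted p = 0.0474, and 0.114 with the block). *PFN2*, an actin-binding profilin, had 599, 606, 632 and 661 CPM at 2AM, against 913, 895, 969 and 906 CPM at 8PM (−0.56 ± 0.0917, adjusted p = 0.0415, and 0.144 with the block). Both were fully separate between times. The secreted protease *HTRA1* had 221 ± 34.8 CPM at 2AM and 403 ± 61.1 CPM at 8PM (−0.88 ± 0.136, adjusted p = 0.0347, and 0.117 with the block). These 3 calls were lost without the same 5 libraries as *lpin1* (adjusted p = 0.078 to 0.221), those of *aqp3a* (0.0527) and *PFN2* (0.0607) also without 8PM replicate C, and that of *aqp3a* without 2AM replicate C (0.0555).

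Several genes of protein folding in the ER fell. In the list named ER stress, 6 of 25 members tested fell and none rose, where 0.454% of all genes fell. Only 2 of 25 (8%) had a change above 0, against 49.6% of all genes, and the median was −0.51, against 0 for all genes. *calr*, the calcium-binding lectin chaperone calreticulin, had 67.4, 55, 67 and 44.6 CPM at 2AM, against 126, 118, 119 and 152 CPM at 8PM (−1.14 ± 0.155, adjusted p = 0.0246). Its relative *calr3b* had 274, 241, 312 and 310 CPM at 2AM, against 444, 446, 495 and 576 CPM at 8PM (−0.78 ± 0.0992, adjusted p = 0.0177). *pdia6*, a protein disulfide isomerase, had 95.3, 86.8, 107 and 106 CPM at 2AM, against 168, 154, 152 and 198 CPM at 8PM (−0.76 ± 0.118, adjusted p = 0.0347). None of the 3 overlapped between the times. The other called members, outside the naming rule, were the disulfide isomerase *pdia4* (101 CPM at 2AM and 236 CPM at 8PM, −1.22), *creld2* (10.1 and 23 CPM, −1.18) and the ER form of HSP90, *hsp90b1* (182 and 360 CPM, −0.99). Members that were not called included other chaperones and folding factors, such as *hyou1* (−1.1, adjusted p = 0.169), *pdia3* (−0.53, adjusted p = 0.0922) and *canx* (−0.38, adjusted p = 0.103), and the stress regulators *xbp1* (0.23), *atf4a* (−0.15), *atf6* (−0.16) and *ddit3* (0.77). With the block no member was called, with adjusted p of 0.0772 for *calr3b*, 0.0998 for *calr* and 0.12 for *pdia6*. Without 2AM replicate A, 2AM replicate B, 8PM replicate A, 8PM replicate B or 8PM replicate D no member was called. In the fit without 8PM replicate C 6 were lower, where 68 of 18410 genes tested were. In that without 2AM replicate C 7 were lower and 1 higher, where 165 and 259 of 18395 genes were. In that without 2AM replicate D 16 were lower, where 3.59% of all genes were. In the 12-month fish alone 21 of 25 were lower and 1 higher, where 21.3% and 19.6% of all genes were. In the 24-month fish alone none was called.

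Some genes of cholesterol synthesis fell as well. Of 23 tested, 3 fell and none rose, where 0.454% of all genes fell, and the list median was −0.64. *insig1*, which holds back the activation of sterol synthesis, had 4.54, 4.23, 6.3 and 3.57 CPM at 2AM, against 13.9, 15.2, 12.8 and 11.1 CPM at 8PM (−1.5 ± 0.206, adjusted p = 0.0246). Both late enzymes of the pathway that were called fell. *ebp* had 3.86, 2.83, 4.55 and 4.51 CPM at 2AM, against 11.7, 9.3, 7.54 and 10.6 CPM at 8PM (−1.32 ± 0.221, adjusted p = 0.0415), and *sc5d* had 27.2, 23.4, 47.6 and 32.7 CPM at 2AM, against 49.3, 51.2, 140 and 78.3 CPM at 8PM (−1.22 ± 0.212, adjusted p = 0.0463). The times were separate for *insig1* and *ebp* and also for *sc5d*, where 47.6 CPM at 2AM lay just under 49.3 CPM at 8PM. With the block none was called (adjusted p = 0.0662, 0.126 and 0.0646). Without 2AM replicate D 8 members fell, where 3.59% of all genes did. In the fit without 2AM replicate C 2 fell, where 165 of 18395 genes tested did. In that without 8PM replicate C 3 fell, where 68 of 18410 genes did. In each of the other 5 such fits none was called. In the list of fatty acid synthesis none of 19 was called, although *scd*, the stearoyl-CoA desaturase, had a change of −1.68 with no overlap.

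Immediate-early genes, which respond within minutes to growth factors and stress, gave the highest list median, 1.29, and 20 of 21 tested had a change above 0. Only *jun* and *dusp6* were called, both higher, beside 0.493% of all genes. *jun*, a subunit of AP-1, had 175, 201, 113 and 136 CPM at 2AM, against 58.8, 69.6, 76.2 and 80.9 CPM at 8PM (1.11 ± 0.189, adjusted p = 0.0429, and 0.141 with the block). *dusp6*, a phosphatase of the ERK kinases, had 63.5, 96.1, 66.6 and 74.3 CPM at 2AM, against 34.7, 31, 32.8 and 44.7 CPM at 8PM (1.08 ± 0.177, adjusted p = 0.0415, and 0.121 with the block). Each 2AM library exceeded each 8PM library for both genes. The other members with the largest changes, *fosb* (2.98), *fosab* (2.67) and *dusp5* (2.29), overlapped between times and were not called. *egr1* (2.02, adjusted p = 0.105), *JUND* (2.01, adjusted p = 0.0882) and *junba* (1.98, adjusted p = 0.0898) were higher in all 4 libraries of 2AM but were not called either. In the fit without 2AM replicate C 4 members were higher, where 259 of 18395 genes tested were. In that without 2AM replicate D 3 were higher and 1 lower, where 3.04% and 3.59% of all genes were. None was called without any of the other 6 libraries. In the 12-month fish alone 17 of 21 members were higher and 1 lower, where 19.6% of all genes were called higher and 21.3% lower, and in the 24-month fish alone none of 22 was called.

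Single members of further lists were called, where 0.493% of all genes were called higher and 0.454% lower. *ulk2*, a kinase that starts autophagy, rose to 83.1, 91.1, 85.6 and 160 CPM at 2AM, against 21, 24, 61 and 49.6 CPM at 8PM (1.56 ± 0.246, adjusted p = 0.037, and 0.141 with the block), 1 of 36 in its list (median 0.2). The CPD photolyase gene *zgc:66475*, whose product repairs UV damage with light, fell to 25.1, 28.4, 33.4 and 31.4 CPM at 2AM, against 58.9, 64.7, 55.3 and 47.6 CPM at 8PM (−0.93 ± 0.156, adjusted p = 0.0415, and 0.145 with the block), 1 of 15 in its list (median −0.13). Times did not overlap for either gene. In the list of NAD and heme metabolism (22 tested, median −0.31), *blvra*, biliverdin reductase, fell to 7.04 ± 1.77 CPM at 2AM, against 21.8 ± 5.52 CPM at 8PM (−1.64 ± 0.259, adjusted p = 0.037, and 0.141 with the block), and *alad*, an early enzyme of heme synthesis, fell to 18 ± 3.23 CPM at 2AM, against 30 ± 3.42 CPM at 8PM (−0.74 ± 0.121, adjusted p = 0.0397, and 0.149 with the block). Each of these 4 calls was lost without 2AM replicate A, 2AM replicate B, 8PM replicate A, 8PM replicate B or 8PM replicate D, where adjusted p lay between 0.127 and 0.191 except for 0.082 for *zgc:66475* without 8PM replicate D, and the calls of *alad* (0.053) and *zgc:66475* (0.0583) also without 8PM replicate C.

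Some called genes outside these lists and outside the naming rule were chosen after their values were seen. *cpt1cb*, of the carnitine palmitoyltransferase family, had 319, 316, 317 and 286 CPM at 2AM, against 79.3, 75.8, 155 and 125 CPM at 8PM (1.57 ± 0.19, adjusted p = 0.0142, and 0.0747 with the block). *pnpla2*, the adipose triglyceride lipase, had 24.8 ± 14.8 CPM at 2AM (SD, n = 4, replicate D 46.9), against 4.23, 4.2, 9.18 and 10.8 CPM at 8PM (1.86 ± 0.282, adjusted p = 0.0347, and 0.0772 with the block). *fbxo32*, the ubiquitin ligase atrogin-1, had 26.9, 33.3, 35.5 and 75.4 CPM at 2AM, against 4.73, 5.71, 26.5 and 13 CPM at 8PM (2 ± 0.357, adjusted p = 0.0474, and 0.155 with the block). All 3 rose with no overlap, and 2AM replicate D was the highest for *pnpla2* and *fbxo32*. The same library had the highest muscle marker sum, and the part of muscle RNA in these changes was not tested. *KLF15* (1.99, adjusted p = 0.038), a fasting-responsive transcription factor in mammals, also rose. The cell cycle inhibitor *cdkn1d* fell to 13.4, 17.6, 21.8 and 26.3 CPM at 2AM, against 55.6, 75.1, 61.7 and 81.8 CPM at 8PM (−1.82 ± 0.198, adjusted p = 0.00742, and 0.0211 with the block). The oligosaccharyltransferase subunits *ddost* (−0.68, adjusted p = 0.0434) and *stt3a* (−0.61, adjusted p = 0.0449), which add glycans to proteins in the ER, fell too. Of these 7 genes *cdkn1d* alone was called with the block, where *KLF15* (0.141), *ddost* (0.145) and *stt3a* (0.149) were not. Its call was lost without 2AM replicate B (0.0518) or 8PM replicate D (0.0566), those of the other 6 without 2AM replicate A, 2AM replicate B, 8PM replicate A, 8PM replicate B or 8PM replicate D (0.0506 to 0.225), and that of *pnpla2* also without 8PM replicate C (0.0566).

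Of the 24 lists, 14 had no called member. Among them were DNA replication (29 tested, median −0.18), mitosis (20, −0.22), proteasome (43, −0.41), oxidative phosphorylation (62, −0.16), cytosolic ribosomal proteins (64, 0.08), collagen and matrix (23, −0.28), pigment (19, 0.2) and innate immunity (23, 0.38). In the proteasome list 3 of 43 members (6.98%) had a change above 0, against 49.6% of all genes. This share was 6.9% for DNA replication, 10% for mitosis, 17.4% for collagen and matrix and 19.4% for oxidative phosphorylation. It was 68.4% for pigment, 82.6% for innate immunity and 90.6% for cytosolic ribosomal proteins. Without 2AM replicate D 23 proteasome genes were called lower, where 3.59% of all genes were. In no other fit that left out a library was a proteasome gene called. With total counts or DESeq2's size factors in place of TMM, the median of all genes moved by less than 0.01 log2 units.

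**Figure D3:**
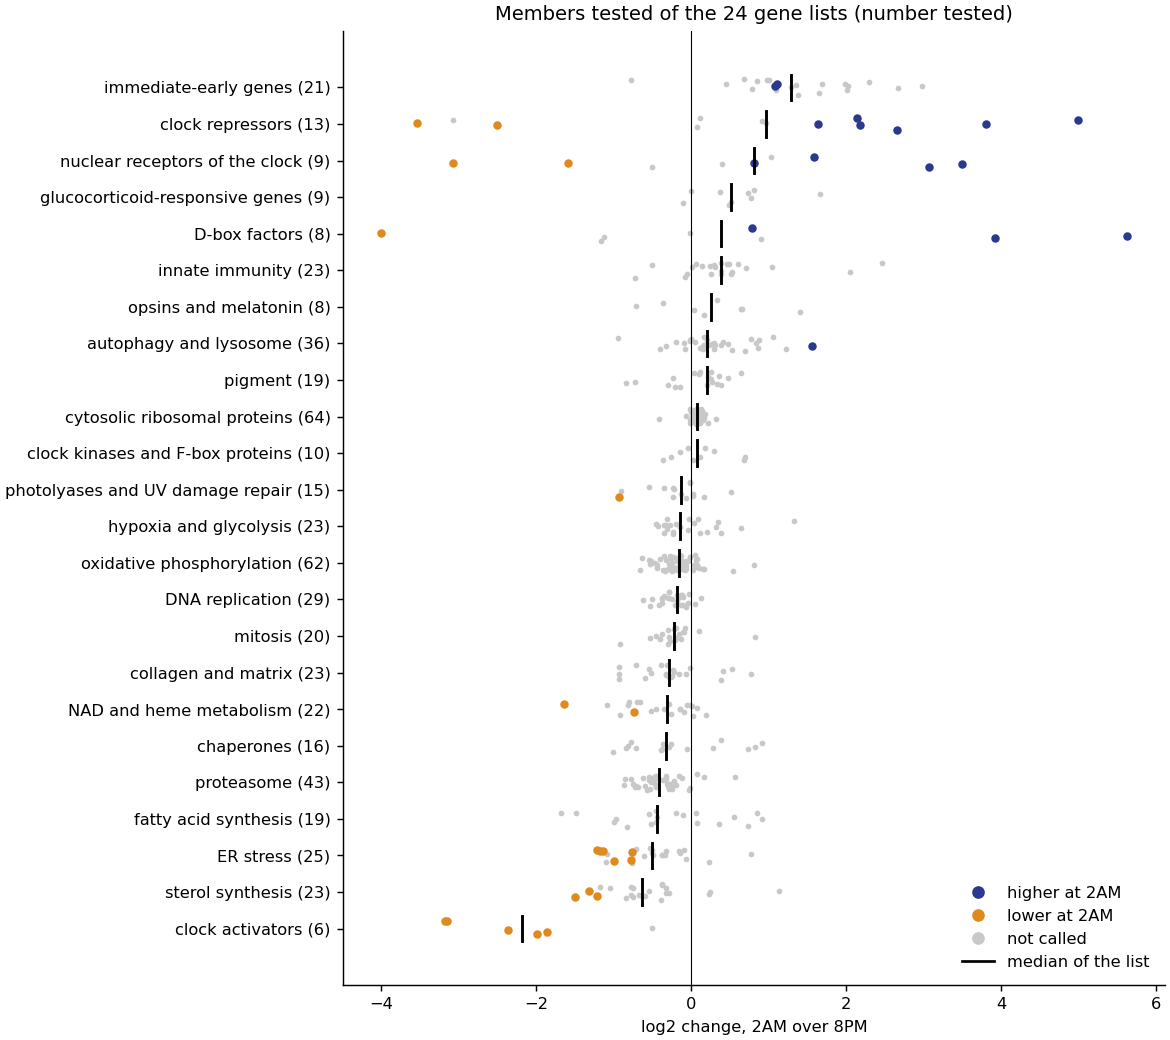
Log2 change (2AM over 8PM) of each member tested of the 24 gene lists, ordered by list median (black bars), with called members in blue (higher) and orange (lower). Immediate-early genes have the highest median (1.29) and clock activators the lowest (−2.18).

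Only 0.947% of all genes tested were called, so an uncalled Ohnolog of a called gene is by itself no result about the pair. Of 694 Ohnolog pairs with both members tested, 16 had at least 1 called member and 3 had both, each in the same direction (*tefb* and *tefa*, *nr1d2b* and *nr1d2a*, *nfil3-5* and ENSXMAG00000019530). Of the 13 pairs with 1 called member, 9 had changes of the same sign (69.2%), against 57.2% of all pairs tested. *cipcb* changed by 3.8, whereas its partner had 4.62 CPM at 2AM and 3.8 CPM at 8PM (0.27, adjusted p = 0.446). *ip6k2b*, an inositol hexakisphosphate kinase gene chosen after its values were seen, rose to 170 CPM at 2AM, against 75.6 CPM at 8PM (1.21, adjusted p = 0.0167, 0.0772 with the block, and 0.0822 to 0.111 without 2AM replicate A or B or 8PM replicate A, B or D), whereas *ip6k2a* had 77.6 and 73.6 CPM (0.1, adjusted p = 0.816). The partners of *cry1ab* (−0.79, adjusted p = 0.162) and *jun* (−0.49, adjusted p = 0.267) had changes of the other sign and were not called. Some uncalled partners had large changes, such as *per2* (−3.08, no overlap) beside *per2*-Ohnolog2 (−2.5). The difference between the members of a pair was not tested.

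The step was also fitted within each age, which is also each library year. The 12-month fish alone gave 7500 calls among 18334 genes (40.9%), 3592 higher (19.6%) and 3908 lower (21.3%), and the 24-month fish alone gave 5 among 18423 (0.0271%), 4 higher (0.0217%) and 1 lower (0.00543%). DESeq2 gave 6528 and 116. The common dispersion was 0.0115 in the 12-month and 0.083 in the 24-month fish. Each age had 2 fish at each time. All 173 genes called over both ages had the same sign in each, a match that their selection over both favours. All 173 were also called in the 12-month fish alone, but only 5 of them in the 24-month fish alone. Of 7441 genes called in the 12-month fish and tested in both, 57.6% had the same sign in the 24-month fish, close to the 55.4% of all 17944 genes tested in both.

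In a test of the interaction of age (or year) and time, 1 gene passed (0.00548%). *cyp1a*, a cytochrome P450 that the aryl hydrocarbon receptor induces, had 4.29 and 4.64 CPM at 2AM, against 42.7 and 52.4 CPM at 8PM, in the 12-month fish. In the 24-month fish it had 15.2 and 13 CPM at 2AM, against 13.8 and 15.8 CPM at 8PM. It was thus lower at 2AM in the 12-month fish, while the values of the 24-month fish overlapped. The change in the 12-month fish minus that in the 24-month fish was −3.41 ± 0.244 (edgeR's quasi-likelihood test, adjusted p = 0.0272). An unadjusted p under 0.05 was reached by 3683 genes. The number of genes passing was 0 without 2AM replicate B or without any of the 8PM libraries, 1 without 2AM replicate A, 71 without 2AM replicate D and 4752 without 2AM replicate C, and DESeq2 gave 1375.

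A step of the same length at the start of the day, 2PM against 8AM, shares no library with the night entry step. Of the 173 called genes, 171 (98.8%) moved the other way in the morning, against 78.2% of all genes tested, and 134 of them were called there in that opposite direction, while none was called in the same direction. Over all genes, 6.78% were called higher and 5.56% lower in the morning. The morning fit took its spread from the libraries of 8AM, 2PM, 8PM and 2AM together, which include those that chose the 173 genes. Genes of low spread at 8PM and 2AM are thus favoured in both tests, and the 134 morning calls are not independent of the selection. Within the 12-month fish the opposite share was 97.7% of called and 72.1% of all genes, and within the 24-month fish it was 98.3% and 61.3%. *dbpb* changed by −3.13 in the morning and *clocka* by 3.1. *per2*-Ohnolog2 was 1 exception in size, at 0.01 in the morning beside −2.5 at night entry. The contrast of the night entry step minus the morning step passed for 5450 of 18935 genes (28.8%), among them 172 of the 173, and the calls at night entry enter that contrast.

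**Figure D4:**
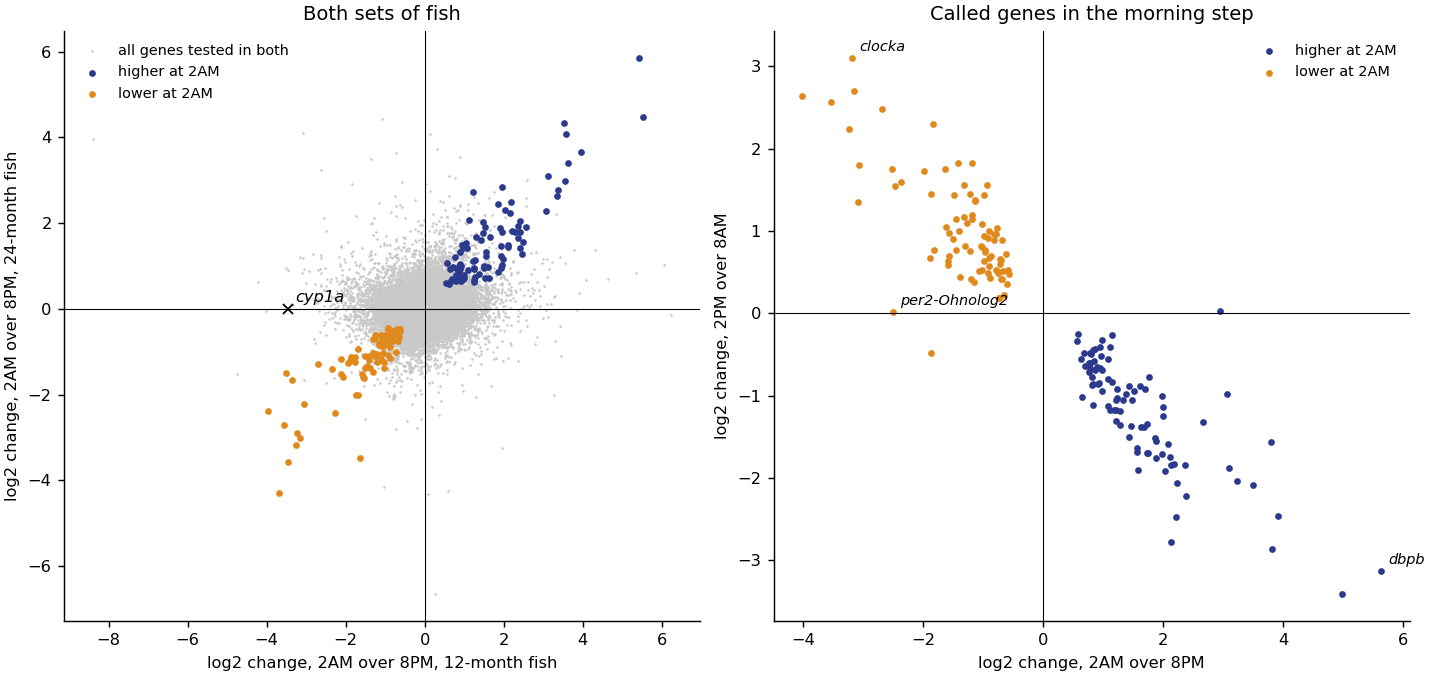
Left, log2 change (2AM over 8PM) in the 12-month fish against that in the 24-month fish, with all genes tested in grey, called genes in blue (higher) and orange (lower), and *cyp1a* as a cross. Right, log2 change from 8AM to 2PM of the 173 called genes against their night entry change, where 171 have opposite signs.

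Libraries of 11PM (2.5 h into the dark, 24-month fish only) lie within the step and were not used to choose the genes, but the 24-month libraries of 2AM and 8PM were. The gap between those times is wide in the called genes by their selection, which favours a value between them. In 151 of the 173 called genes (87.3%) the mean at 11PM lay between the 24-month means of 2AM and 8PM, against 36.4% of all genes tested. Of these 151, 80 were nearer to 2AM and 71 nearer to 8PM on the log scale. *dbpb* had 74.4 and 28.6 CPM at 11PM, where the 24-month means were 302 CPM at 2AM and 5.46 CPM at 8PM. *nfil3-5* had 5.83 and 5.49 CPM at 11PM, where the 24-month means were 1.59 CPM at 2AM and 33 CPM at 8PM. Both were partly changed, and the 2 fish differed more for *dbpb*. *bhlhe40*, with a mean of 20.9 CPM at 11PM, was still close to its 8PM mean of 15.9 CPM.

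The 6 h step from 5PM to 11PM also crosses lights-off and uses no library of the test. In it 115 of the 173 called genes (66.5%) had the same sign as in the night entry step, 63 of the 90 higher and 52 of the 83 lower, against 51.3% of all genes. Replicate A of 5PM deviated over many genes, with 6121 of 16699 below 0.5 times their median over the libraries. Without it 107 of 173 had the same sign, against 39.8% of all genes, and without 5PM replicate B 112 did, against 53.7%. The 2 fish of 11PM mattered more, with 91 of 173 (52.6%, against 46.5% of all genes) without replicate A and 139 of 173 (80.3%, against 55.1%) without replicate B. Of the 90 higher genes, 41 had the same sign without 11PM replicate A and 79 without 11PM replicate B. Of the 83 lower genes, 50 and 60 did.

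**Figure D5:**
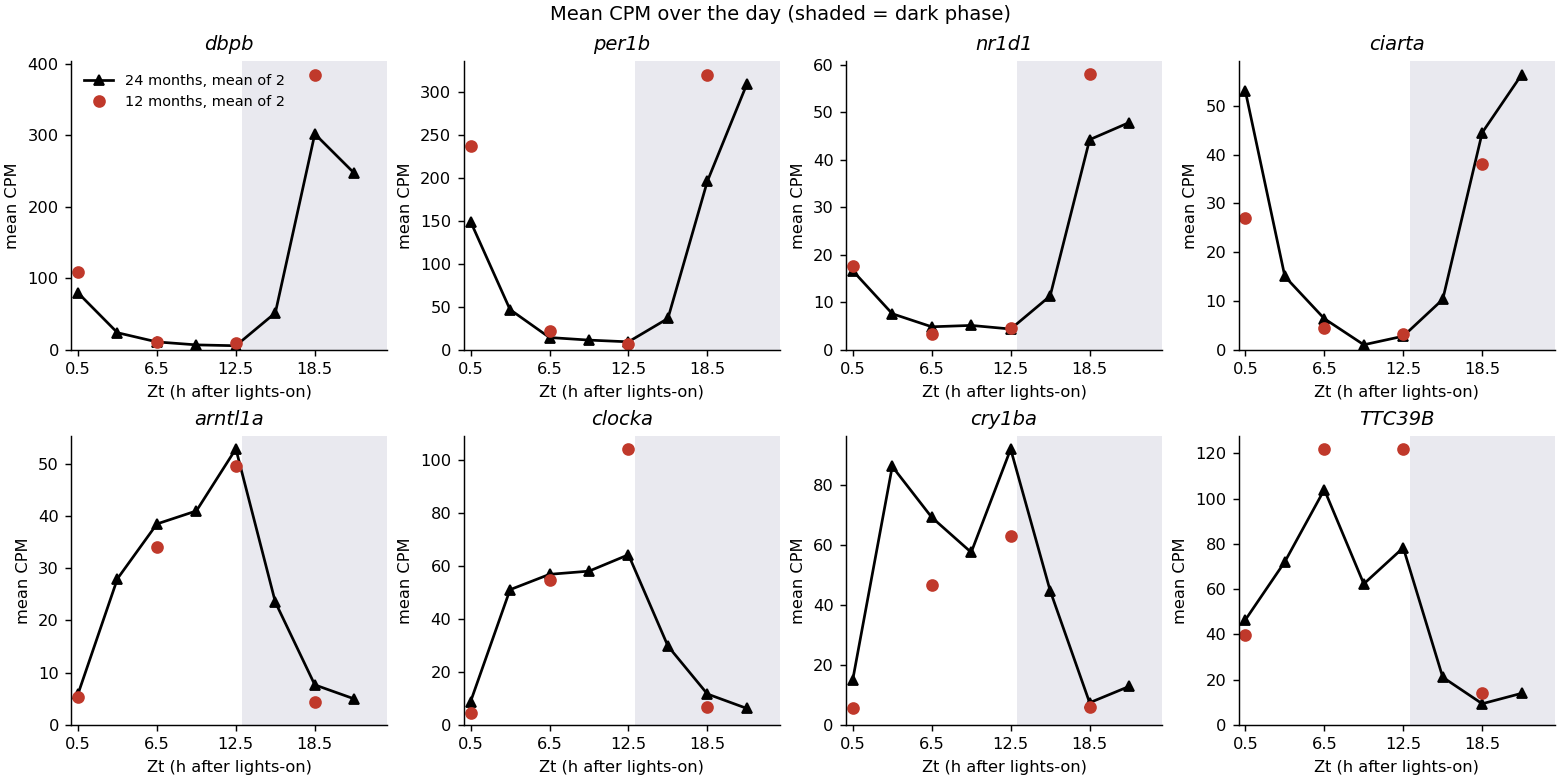
Mean CPM over the day of 4 genes that rose (top row) and 4 that fell (bottom row), with black triangles for 24-month fish (mean of 2 at 8 times) and red circles for 12-month fish (mean of 2 at 4 times), and the dark phase shaded. *dbpb*, *per1b*, *nr1d1* and *ciarta* are high at 2AM and low at 8PM, and *arntl1a*, *clocka*, *cry1ba* and *TTC39B* the reverse.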

How the data were processed

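RNA-Seq of skin was analysed from the deposited table of raw read counts. The authors mapped quality-filtered reads with TopHat2 and counted them per Ensembl gene model with featureCounts, without normalization or pooling; their versions and the strand and multi-mapping settings were not found in the sources used here, so counts of near-identical paralogs and of overlapping genes are uncertain. Total counts of the 8 libraries ranged from 25927255 to 34107265. The table held 24209 genes, and 11936 (49.3%) were paired with a name printed in the study's tables.

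CPM used total counts. Changes were tested with edgeR 4.0.16 (R 4.3.3, TMM, filterByExpr, quasi-likelihood test, adjusted p under 0.05) on time and library year (2018 in the names of the 12-month and 2016 in those of the 24-month fish) over the 8 libraries. Alternatives were DESeq2 1.42.0, limma 3.58.1 voom with array weights, other scalings, filters and covariates, each year alone, and each library left out. The test was checked on simulated data with no year effect and the same spread in both years. That check therefore does not cover the wider spread of the 24-month fish. Libraries are from separate fish.

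Replicate letters are shared between times, but the labels do not say that they mark anything common. The letters within the 2018 library names do not follow the replicate letters across times. Deviations from the time and year means correlated between same-lettered libraries (0.138 in 2018 and 0.281 in 2016). These values cannot show a pairing. Deviations of A and B, and of C and D, mirror each other within a time, so swapping letters at either time only reverses the sign. The block is therefore an alternative model that neither the design nor this correlation calls for. Blocked values are given beside changed calls.

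Members and gene lists were chosen with earlier results of these data known. Named were all tested members of the 4 clock lists, the 12 largest called rises and falls with at least 5 CPM, no overlap and a name, up to 3 called members of each other list and direction, and the 3 most abundant called named genes of each direction.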

Additional observations from a re-analysis of the deposited data

Results flagged for a closer look

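Of 116 groups of 4 libraries, 6 had 1 library far from the other 3 (Dixon's test at 95%, which chance gives in about 1 of 20 groups). In 5 of the 6 this was 2AM replicate D. It had 239 CPM of *lpin1* (the other 2AM libraries 50.3 to 69.3 CPM), 160 CPM of *ulk2* (83.1 to 91.1 CPM), 139 CPM of *nr1d4b* (291 to 308 CPM), 17.3 CPM of *cry2* (27.7 to 29 CPM) and 40 CPM of *nfil3-6* (6.25 to 10.7 CPM). The sixth was 2AM replicate C, with 21 CPM of *BHLHE40* (51.1 to 55.1 CPM). The change of *cyp1a* differed between the 12-month and the 24-month fish by −3.41 log2 units (12-month minus 24-month fish).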

How the results depend on the processing

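With 4 fish per time the counts of calls depended on the model more than the directions did. Higher and lower calls (90 and 83) became 20 and 18 without the year covariate, 18 and 10 with the replicate block, 822 and 698 with DESeq2 and 3634 and 4053 with limma-voom and array weights. The 12-month fish alone gave 3592 and 3908 (3148 and 3380 with DESeq2), and the 24-month fish alone gave 4 and 1 (85 and 31 with DESeq2, 10 and 3 without 2AM replicate D). Leaving out 1 library gave 17 to 560 higher and 12 to 662 lower. The DESeq2 fits within an age, and the 24-month fit without replicate D, were chosen after seeing the data. The interaction count of 1 became 0 with unscaled totals or limma-voom and 1375 with DESeq2, and 0 to 4752 with 1 library left out. The contrast with the morning step (5450) became 9023 with limma-voom, 5093 with the block and 3950 to 6610 with 1 library left out. Other scalings and filters kept all counts of the step within 1.5 times. Among 58 named genes no called gene changed sign in any fit. Signs turned for 3 uncalled genes. *nfil3-6* (−0.01) had 0.09 without the year covariate, 0.02 with no filter, 1.34 in the 24-month fish with either tool, and with 1 library left out −0.88 to 0.52 (0.16, 0.52, 0.23, 0.31 and 0.16 without 8PM A, 2AM A, 8PM B, 2AM B and 2AM C). *cry2* (0.07) had −0.11 in the 24-month fish with either tool and with 1 library left out −0.01 (2AM replicate C) to 0.23. *BHLHE40* (0.91) had −0.17 in the 24-month fish without 2AM replicate D. The causes were not tested. Promoter motifs were not run, since no promoter sequences were at hand. At low CPM a change of few reads could not be resolved, since 3 counts correspond to 0.088 to 0.116 CPM.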
